A study of Mus musculus with 38 samples.

Results

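The mitochondrial ribosomal proteins are the nuclear-encoded proteins of the ribosome that works inside mitochondria. They were taken here as the array probes whose single gene symbol begins with Mrpl or Mrps followed by a digit. The rule gave 114 probes of 77 genes, out of 36607 probes in all, of which 26926 carry 1 gene symbol and cover 17501 genes. Of these probes 72 belong to 50 genes of the large subunit and 41 to 26 genes of the small subunit. Mrps30 and Mrps18a were counted with the large subunit, where their proteins sit despite the name. Mrps36 was kept apart, because its protein is now known as a component of the 2-oxoglutarate dehydrogenase complex. Mrpl41 is not among the members, since its probe carries a second gene symbol.

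Livers of mice that had been given the carcinogen N-nitrosodiethylamine (DEN) were profiled to ask how transcript levels differ when hepatocytes lose c-Met, which binds hepatocyte growth factor. Each of 20 mice contributed 1 log2 ratio per probe, its liver over a common reference, from 38 two-colour arrays. There were 5 mice in each of 4 groups, namely knockout and control at 3 months and knockout and control at 5 months. The knockouts carried Alb-Cre +/- and Met Fl/Fl, on a background labelled 129SV/C57BL6. The controls carried Alb-Cre +/- alone, on a background labelled B6129, so Cre is common to both genotypes and the strain label is not. Cre was driven by the albumin promoter, which acts in hepatocytes, and the other liver cells of a knockout keep Met. All mice were male, and every one, control or knockout, had received DEN once, at 10 micrograms per gram of body weight and an age of 14 days. The series describes livers 3 and 5 months after the dose, while the labels give ages of 12 and 20 weeks, and the 2 statements do not match. The reference was RNA pooled from 5 wild-type male B6129 livers aged 12 weeks, for which the labels give no DEN. No group of mice without DEN other than this pool is used here.

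Mitochondrial ribosomes translate the few mRNAs of the mitochondrial genome, all of which encode core subunits of the oxidative phosphorylation complexes. Their RNAs come from mitochondrial DNA, whereas every protein is made in the cytosol from nuclear genes and imported, so the organelle's ribosome depends on coordinated expression from both genomes. Hepatocytes are rich in mitochondria, and promoters of nuclear genes for mitochondrial proteins often carry sites for NRF1 and for the ETS factor GABP.

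Several features of the arrays precede the results. No source names which dye is on top of the deposited ratio. Cy5 over Cy3 is the likely direction and was used, and every higher and lower here would trade places if it were Cy3 over Cy5. A log ratio gives no absolute level, so the tissue cannot be checked by how much of a liver marker was present. Liver was labelled with Cy5 on 1 array and with Cy3 on another for 18 mice. The 5-month knockouts 2 and 3 have 1 orientation each, and for them an estimated dye effect was subtracted. That effect was averaged over the mice of both times. Its median size over all probes was 0.37 at 3 months and 0.14 at 5 months. The subtraction moved the median over all probes from 0.22 to -0.04 in knockout 2 and from -0.06 to 0.20 in knockout 3. With liver in opposite dyes, the 2 subtractions cancel in the group mean but not in single values, ranges or SDs. The arrays fall into 4 runs of consecutive array numbers, each with mice of 1 time, so time and array run cannot be told apart. At 3 months the median over all probes was -0.65 to -0.34 on arrays with liver in Cy5 and 0.17 to 0.39 on arrays with liver in Cy3. Among the members, the 3-month control 5 had the highest value of the 20 mice in 61 of 114 probes, against 9.79% of all probes. The 5-month control 4 had the lowest value in 55 of 114, against 17% of all probes. The counts and medians over the members that involve these 2 livers are also given without them. The single probe for Met gave -0.39 ± 0.38 in 3-month knockouts and -0.81 ± 0.18 in 3-month controls (SD, n = 5). At 5 months it gave -0.78 ± 0.45 in knockouts and -0.73 ± 0.30 in controls. Met was thus not lower in knockouts (limma adjusted p = 0.655 and 0.979), and whether its probe lies in the deleted part is not given, so the genotype rests on the labels.

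Taken 1 probe per gene, the mitochondrial ribosomal proteins lay above the reference in the livers of 3 months and near it in those of 5 months. The median over the 77 genes was 0.40, 0.25, 0.11, 0.14 and 0.20 in knockouts 1 to 5 at 3 months. In the 3-month controls 1 to 5 it was 0.41, 0.31, 0.25, 0.16 and 0.70. All 10 medians were above 0, and the groups overlapped, with control 5 above every other liver. At 5 months the median was 0.20, 0.03, 0.02, 0.02 and 0.03 in knockouts 1 to 5 and 0.04, 0.01, -0.01, -0.28 and -0.07 in controls 1 to 5. Knockout 1 was the highest and control 4 the lowest of the 5-month livers, while the other 8 lay close to the reference. The group means of these medians were 0.22 ± 0.12 in knockouts and 0.37 ± 0.21 in controls at 3 months, and 0.06 ± 0.08 in knockouts and -0.06 ± 0.13 in controls at 5 months (SD, n = 5 each). The median over all probes moved the other way between the times, with group means of -0.10, -0.05, 0.08 and 0.08 in the same order.

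**Figure D1:**
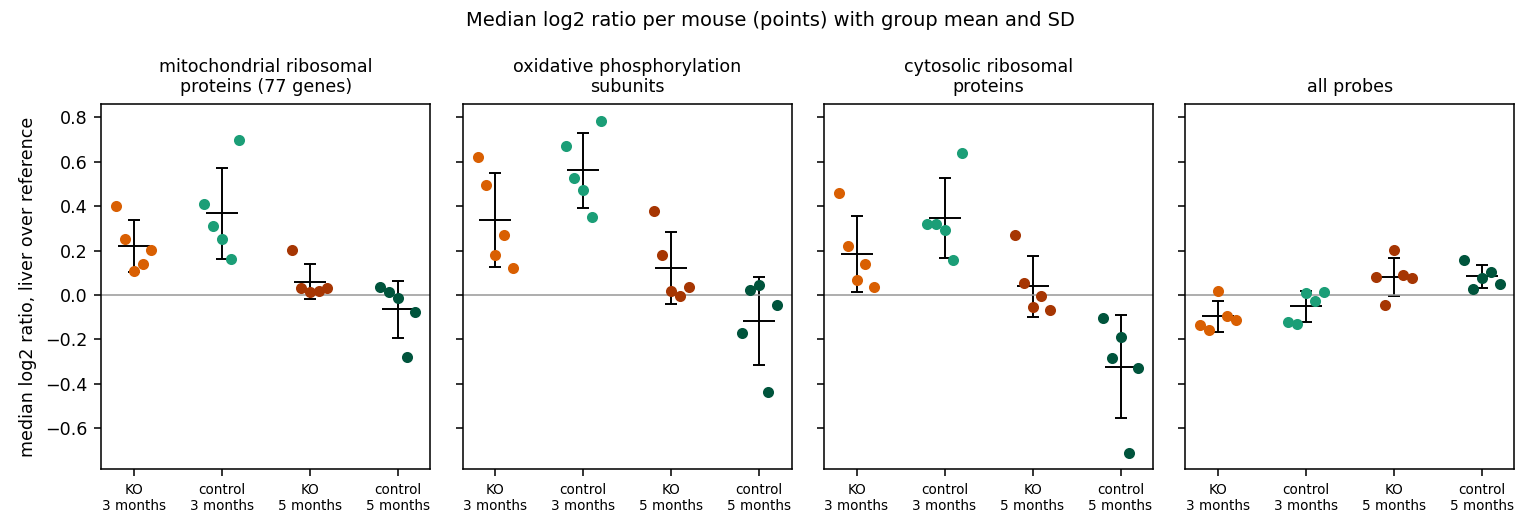
Median log2 ratio of liver over reference in each mouse (points, 5 per group) for the mitochondrial ribosomal proteins, the oxidative phosphorylation subunits, the cytosolic ribosomal proteins and all probes, with group mean and SD (bars). The mitochondrial ribosomal proteins lie between 0.11 and 0.70 at 3 months and between -0.28 and 0.20 at 5 months.

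Counts of probes against the reference were taken next. All 5 knockouts of 3 months were above 0 in 48 of 114 probes, against 12.2% of all probes, and all 5 controls of 3 months in 58, against 13.5%. At 5 months all 5 knockouts were above 0 in 27 probes, against 24.1% of all probes, and all 5 controls in 21, against 30.1%. All 5 mice were below 0 in 3 probes in 3-month knockouts (18.8% of all probes), 8 in 3-month controls (18.9%), 11 in 5-month knockouts (16.6%) and 24 in 5-month controls (18.9%). At 3 months controls thus had more probes than knockouts both above and below the reference. Because 1 pool served all arrays, its own spread is not measured and no test was made against it. Whether a probe lay above the reference depended in part on the dye. Both orientations gave a group mean above 0 in 64 of 114 probes in 3-month knockouts (16.7% of all probes), 71 in 3-month controls (15.5%), 37 in 5-month knockouts (30.1%) and 30 in 5-month controls (42.5%). Both gave a mean below 0 in 8, 10, 19 and 49 probes of these groups, against 20.7%, 21.8%, 25.3% and 31.4% of all probes.

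By the first probe of each gene, those farthest above the reference over all 20 mice were Mrps15, Mrpl42, Mrpl34 and Mrps30. Mrps15, a small-subunit protein with a bacterial counterpart, was positive in every liver by this probe, with 0.86, 0.62, 0.53, 0.64 and 0.73 in 3-month knockouts and 0.59, 0.58, 0.68, 0.58 and 0.65 in 3-month controls. At 5 months its log2 ratio was 0.46, 0.16, 0.48, 0.42 and 0.41 in knockouts and 0.39, 0.44, 0.49, 0.06 and 0.27 in controls. Its groups overlapped at both times. The second probe of Mrps15 went the other way, with group means of -0.12 and -0.28 in knockouts and controls at 3 months and -0.11 and -0.09 in knockouts and controls at 5 months. Mrps30 owed part of its place to 1 liver, the 3-month knockout 5, at 2.06, while the other 4 knockouts of that group had 0.49 to 0.86. By the first probe of each gene, Mrpl15, Mrpl35, Mrps5 and Mrps26 were farthest below the reference. Mrpl15, a large-subunit protein with a bacterial counterpart, averaged -0.82 ± 0.60 in knockouts and -1.11 ± 0.43 in controls at 3 months, and -0.76 ± 0.25 in knockouts and -0.49 ± 0.20 in controls at 5 months (SD, n = 5 each). The lower value of Mrpl35 was that of its first probe, since its second probe averaged between -0.01 and 0.19 in the 4 groups. Mrps5 was likewise low by its first probe, at -0.40 over the 20 mice, while its other 2 probes averaged 0.28 and 0.05.

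**Figure D2:**
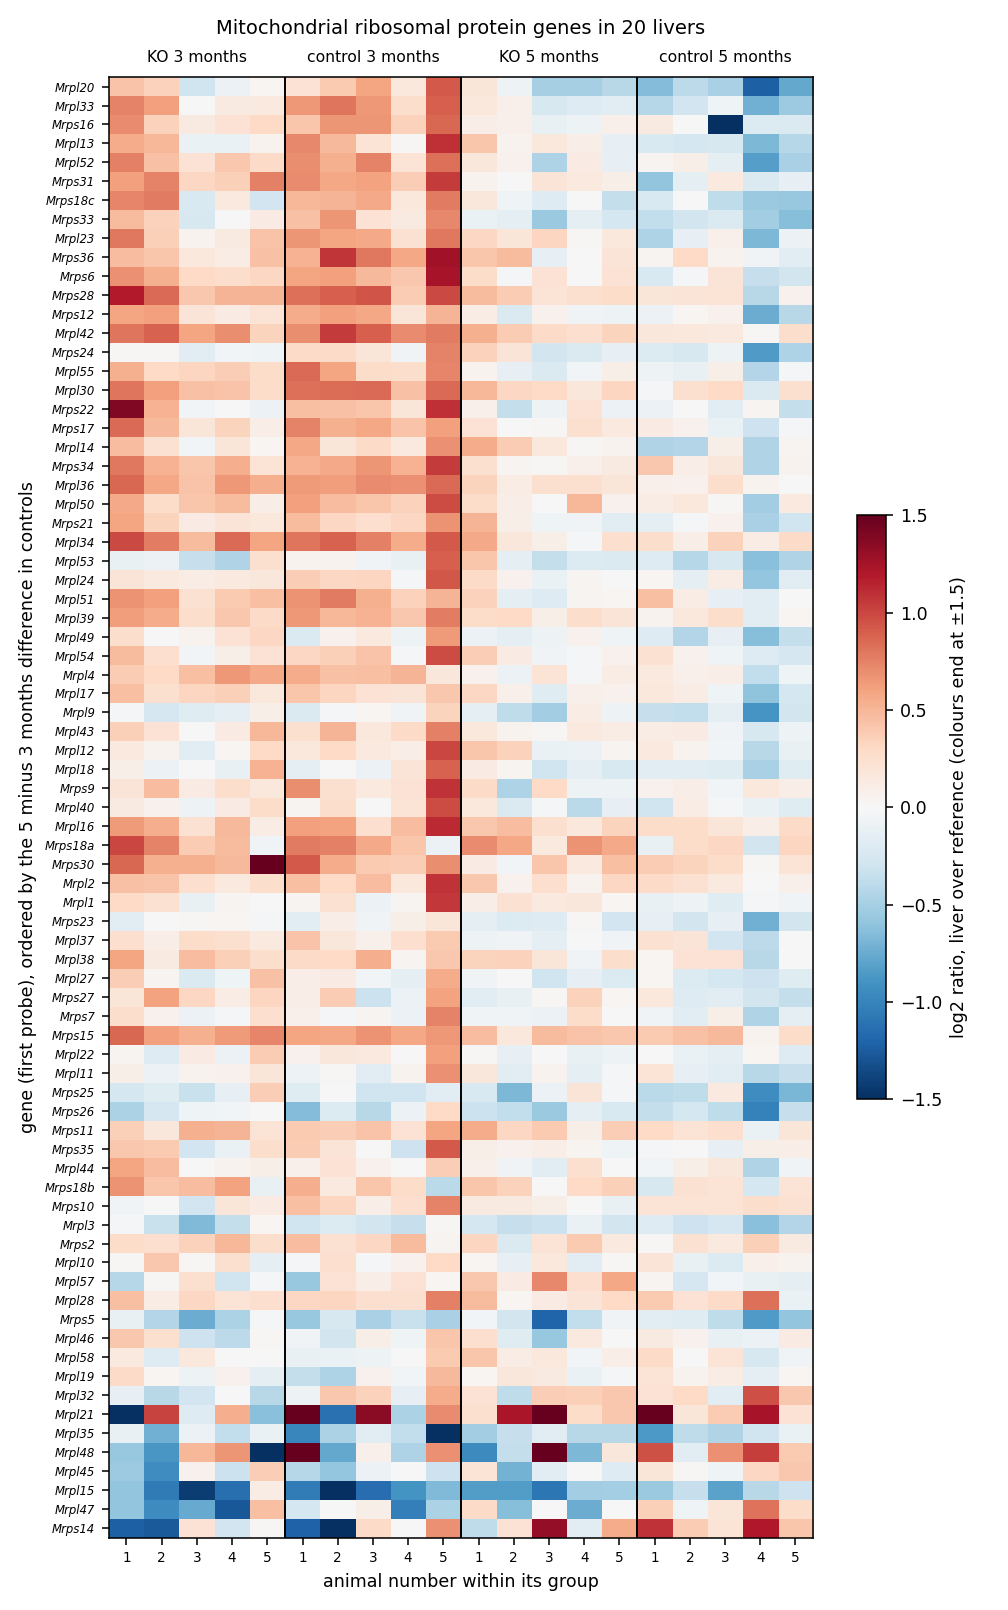
Log2 ratio of liver over reference for the first probe of each of the 77 genes in the 20 mice, with colours ending at 1.5 on either side of 0. Genes run from the most negative to the most positive difference of 5 minus 3 months in controls. The upper genes are red in the 3-month columns and pale to blue in the 5-month columns, and 3-month control 5 and 5-month control 4 stand out as the reddest and bluest columns.

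The largest differences among these genes were between the times, in the controls. At 5 months 41 of 114 probes (36%) were lower than at 3 months at a limma adjusted p under 0.05, against 7.25% of all probes, and 0 were higher, against 7.41%. Their differences ran from -1.16 to -0.38, so these probes were 1.3-fold to 2.23-fold lower. They belong to 36 genes, with 24 probes in the large subunit (33.3% of its probes), 16 in the small subunit (39%) and Mrps36. For 25 of these genes every probe passed, but all of them except Mrpl33 and Mrps12 have a single probe. The count therefore says little about agreement between probes of a gene. The groups did not overlap, with all 5 livers of 5 months below all 5 of 3 months, in 38 of 114 probes, against 6.03% of all probes. The median difference over the 77 genes was -0.39, against 0.13 over all probes. Without 3-month control 5 and 5-month control 4, 25 probes passed (21.9%, against 4.32% of all probes) and the median was -0.24. Then 42 probes were lower without overlap (36.8%, against 9.1% of all probes) and 2 were higher without overlap (1.75%, against 13%). With fewer mice in each group, ranges part more easily, over all probes too. In bulk liver, fewer cells of a type and less RNA per cell cannot be told apart.

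Mrpl33, a short protein of the large subunit, had the smallest adjusted p. Its log2 ratio was -0.43, -0.29, -0.06, -0.72 and -0.55 in the 5-month controls and 0.65, 0.80, 0.65, 0.27 and 0.89 in the 3-month controls. Every 5-month liver was below the reference and every 3-month liver above it, a difference of -1.06 (SE 0.17, limma adjusted p = 0.00109). Its second probe gave -1.01 (SE 0.16, limma adjusted p = 0.00128). Mrpl36, the mitochondrial counterpart of a very small bacterial ribosomal protein, had a narrow spread in both groups. It measured 0.08, 0.06, 0.26, 0.05 and 0.01 in 5-month controls and 0.64, 0.63, 0.71, 0.68 and 0.85 in 3-month controls, a difference of -0.61 (SE 0.10, limma adjusted p = 0.00151). Mrpl20, a large-subunit protein whose bacterial counterpart takes part early in subunit assembly, had the largest difference, at -1.16 (SE 0.19, limma adjusted p = 0.00162). Its log2 ratios were -0.65, -0.39, -0.48, -1.22 and -0.77 in 5-month controls and 0.22, 0.39, 0.60, 0.16 and 0.92 in 3-month controls. Neither Mrpl36 nor Mrpl20 overlapped between the times, and Mrpl36 differed from the other pair in staying above the reference at 5 months. Mrpl42, Mrpl23, Mrpl52 and Mrpl13 also passed, with differences from -0.87 to -0.67 and limma adjusted p-values from 0.00185 to 0.00634.

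Among small-subunit genes, Mrps31 had the smallest adjusted p. It measured -0.59, -0.15, 0.14, -0.22 and -0.12 in 5-month controls and 0.71, 0.58, 0.61, 0.37 and 1.05 in 3-month controls. The groups did not overlap, and the difference was -0.85 (SE 0.14, limma adjusted p = 0.00176). Its other 2 probes gave -0.80 and 0.03, so the 3 probes of Mrps31 did not share 1 value. Mrps12, a protein of the decoding centre, was lower by both of its probes, at -0.72 and -0.62 (limma adjusted p = 0.00676 and 0.00754). Mrps34 and Mrps16, in which human mutations cause combined respiratory chain deficiency, had differences of -0.61 and -1.01 (limma adjusted p = 0.0127 and 0.0156). Mrps16 owed part of its size to 5-month control 3, at -1.79, where the other 4 had -0.22 to 0.14, and without that liver the difference was -0.66. Mrps22, another gene of that deficiency, had a difference of -0.63 that did not pass (limma adjusted p = 0.0717). Mrps36 passed too, at -0.81 (limma adjusted p = 0.00358). It measured 0.04, 0.30, 0.05, -0.05 and -0.16 in 5-month controls and 0.52, 1.08, 0.79, 0.58 and 1.26 in 3-month controls, with no overlap.

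The size of the shift relative to all probes depended on the dye orientation. The median difference of the members minus that of all probes was -0.53 with both orientations, -0.85 on arrays with liver in Cy5 alone and -0.14 on arrays with liver in Cy3 alone. All 41 probes were lower in each orientation, and 34 of them passed with liver in Cy5 alone (7.79% of all probes lower) and 28 with liver in Cy3 alone (14% of all probes lower). The 41 were picked on the average of these same arrays, which favours that outcome. With array run as a random block, 32 of the 41 passed, all of them lower, against 4.32% of all probes. Each run holds mice of 1 time, so this fit cannot separate array run from time. Centring each array on its own median gave 66 member probes lower and 0 higher, moved the median over all probes to -0.01, and turned the split over all probes to 13% lower and 4.25% higher. With liver in Cy5 alone 10 member probes were called higher, as were 40.1% of all probes, against 0 member probes with liver in Cy3 alone. The medians of liver cell markers moved too. Between 5-month and 3-month controls they differed by -0.36 for hepatocyte markers (2 of 9 probes called lower), -0.33 for endothelial markers (3 of 11), -0.49 for Kupffer cell and macrophage markers (3 of 9) and -0.28 for erythroid markers (1 of 6). They differed by 0.40 for neutrophil markers (0 of 7), 0.25 for lymphocyte markers (0 of 11) and 0.22 for cholangiocyte markers (0 of 5, with 1 called higher). For stellate cell and fibroblast markers they differed by 0.20 (5 of 17, with 1 called higher), against 0.13 over all probes. These medians take 1 probe per gene, while the counts take every probe and stand against 7.25% lower and 7.41% higher over all probes. The stellate cell and fibroblast list had no clear direction, since its group median was -0.04 in 3-month controls and -0.16 in 5-month controls. The Kupffer cell and macrophage medians ran from -0.76 to -0.06 over the 5-month controls and from -0.02 to 0.33 over the 3-month controls, without overlap. Their part in the shift was not tested, and an array ratio does not show whether a defining marker is at 0.

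In the knockouts the same contrast gave fewer calls. At 5 months 2 of 114 probes (1.75%) were lower than at 3 months, against 0.743% of all probes, and 0 were higher, against 3.99%. Both are large-subunit genes. Mrpl34 measured 0.57, 0.17, 0.08, -0.03 and 0.25 in 5-month knockouts and 0.99, 0.76, 0.48, 0.85 and 0.60 in 3-month knockouts. Only 5-month knockout 1 reached the range of the 3-month livers, and the difference was -0.53 (SE 0.13, limma adjusted p = 0.0292). Mrpl36 measured 0.34, 0.11, 0.24, 0.24 and 0.18 in 5-month knockouts and 0.87, 0.58, 0.43, 0.66 and 0.54 in 3-month knockouts. Its groups did not overlap, and the difference was -0.40 (SE 0.10, limma adjusted p = 0.0345). Neither call held without the 5-month knockouts that have 1 orientation, on arrays with liver in Cy3 alone or with array run as a random block, each of which gave 0 probes lower. Centring each array gave 17 member probes lower with a median of -0.31, where 3.53% of all probes were lower and 2.17% higher. Quantile normalization gave 5 with a median of -0.29, where 3.02% of all probes were lower and 1.8% higher. The groups did not overlap in 13 of 114 probes, all lower at 5 months, against 2.04% of all probes. The median difference was -0.14, against 0.14 over all probes.

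For the 41 probes called in controls, the median difference was -0.31 in knockouts and -0.63 in controls. In knockouts 39 of them were lower at 5 months and 40 had a smaller difference than in controls. They were picked on the controls, which favours a larger size there, and the test of the difference itself called 0 of them. Mrpl13 gave -0.06 in knockouts and -0.87 in controls, Mrpl20 -0.34 and -1.16, and Mrpl33 -0.41 and -1.06. Mrpl34 differed little, with -0.53 in knockouts and -0.56 in controls.

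**Figure D3:**
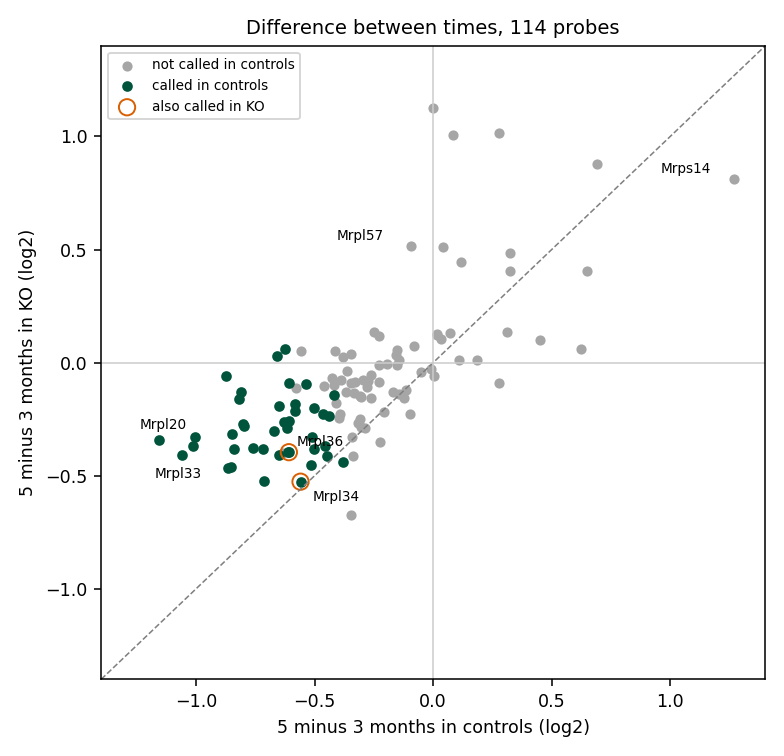
Difference of 5 minus 3 months in log2 ratio for each of the 114 probes, with knockouts on the vertical and controls on the horizontal axis, and a dashed line where both are equal. The 41 probes called in controls (green) lie left of 0, 40 of them above the line, and the 2 that were also called in knockouts are ringed.

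Promoter sequence was looked at because many of these probes were lower at 5 months in controls. Whether a motif goes with such a difference was not tested. RefSeq (GRCm38.p6) gave 74 windows, from 250 bases before to 50 after the annotated start, for 68 of the 77 genes, and 32851 windows over all genes. Each motif was searched on both strands. The ETS and GABP core, CCGGAAG, was in 35.1% of the members' windows and in 8.86% of all windows. The 10-base NRF1 core was in 17.6% and in 4.6%, its shorter form GCATGCGC in 10.8% and in 2.71%, and the YY1 core, AAGATGGC, in 16.2% and in 2.75%. The shorter ETS letters CGGAAG, which lie within CCGGAAG, were in 54.1% and in 16.9%. The SP1 letters GGGCGG were in 52.7% and in 35.7%. CCAAT was in 39.2% against 37.4%, CACGTG in 9.46% against 7.15% and TATAAA in 6.76% against 13.6%. A match describes the letters of a window and not a site that a factor uses. The bases from 120 before to 30 after the start are printed for the 3 genes with the smallest adjusted p between the times in controls and for Mrpl57, which had the largest positive genotype difference at 5 months. Capitals mark matches to the ETS and GABP, NRF1 or YY1 core. They lie at chr5:31613831-31613980 for Mrpl33, chr13:73330889-73331038 for Mrpl36, chr4:155802758-155802907 for Mrpl20 and chr14:57826119-57826268 for Mrpl57, each on the plus strand.
Mrpl33: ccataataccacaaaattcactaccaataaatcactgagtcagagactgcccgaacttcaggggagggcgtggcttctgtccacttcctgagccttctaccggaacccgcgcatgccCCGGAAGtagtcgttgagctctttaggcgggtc
Mrpl36: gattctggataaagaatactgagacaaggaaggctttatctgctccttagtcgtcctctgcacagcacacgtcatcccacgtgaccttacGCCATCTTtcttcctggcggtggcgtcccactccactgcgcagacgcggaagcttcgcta
Mrpl20: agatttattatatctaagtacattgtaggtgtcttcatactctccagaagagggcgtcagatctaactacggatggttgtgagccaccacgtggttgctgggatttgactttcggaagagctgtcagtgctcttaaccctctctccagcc
Mrpl57: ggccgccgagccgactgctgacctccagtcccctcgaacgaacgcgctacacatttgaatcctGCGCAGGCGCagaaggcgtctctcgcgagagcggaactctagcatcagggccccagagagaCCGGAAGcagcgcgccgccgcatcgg

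The stretch of Mrpl33 holds the ETS and GABP core, that of Mrpl36 the YY1 core read on the other strand, and that of Mrpl57 both the NRF1 core and the ETS and GABP core. The stretch of Mrpl20 holds none of the 3 cores.

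Between genotypes at 3 months, 0 of 114 probes passed a limma adjusted p under 0.05 in either direction, against 0.0355% of all probes (0.0164% higher and 0.0191% lower), and the smallest adjusted p among them was 0.303. At an unadjusted p under 0.05, 4 probes were lower in knockouts (3.51%, against 5.82% of all probes) and 0 were higher, against 2.14%. The median difference was -0.12, against -0.02 over all probes, and 27 of 114 probes had a positive difference, against 45.5% of all probes. Without 3-month control 5 the median was -0.04. Without it and 5-month control 4 there were 3 probes lower at an unadjusted p under 0.05 (2.63%, against 4.98% of all probes). Then 44 of 114 were positive, against 17652 of 36607 over all probes. Within the array runs the median difference was 0.01 in the run that holds knockouts 1 and 2 and controls 1 to 3. It was -0.24 in the run that holds knockouts 3 to 5 and controls 4 and 5, so a lower median in knockouts was not found within both runs.

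Mrps36 came nearest at 3 months. It measured 0.47, 0.42, 0.16, 0.12 and 0.44 in knockouts and 0.52, 1.08, 0.79, 0.58 and 1.26 in controls. All knockouts lay below all controls, the only member probe without overlap at this time, where 0.929% of all probes were lower in that way. The difference was -0.52 (SE 0.16, limma adjusted p = 0.303). Mrps10, a small-subunit protein with a bacterial counterpart, had -0.05, -0.004, -0.29, 0.19 and 0.12 in knockouts and 0.45, 0.32, 0.10, 0.26 and 0.74 in controls. The groups overlapped, and the difference was -0.38 (SE 0.12, limma adjusted p = 0.359). Its other 2 probes gave -0.44 and -0.19. The other representative probes with the largest negative differences were Mrpl21, Mrpl48, Mrpl32 and Mrpl20, at -0.71, -0.69, -0.47 and -0.37. Those with the largest positive ones were Mrpl35, Mrps30, Mrpl15, Mrps18b, Mrps27 and Mrps14, at 0.42, 0.31, 0.29, 0.21, 0.17 and 0.11, and the adjusted p-values of these 10 probes were between 0.551 and 0.986.

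**Figure D4:**
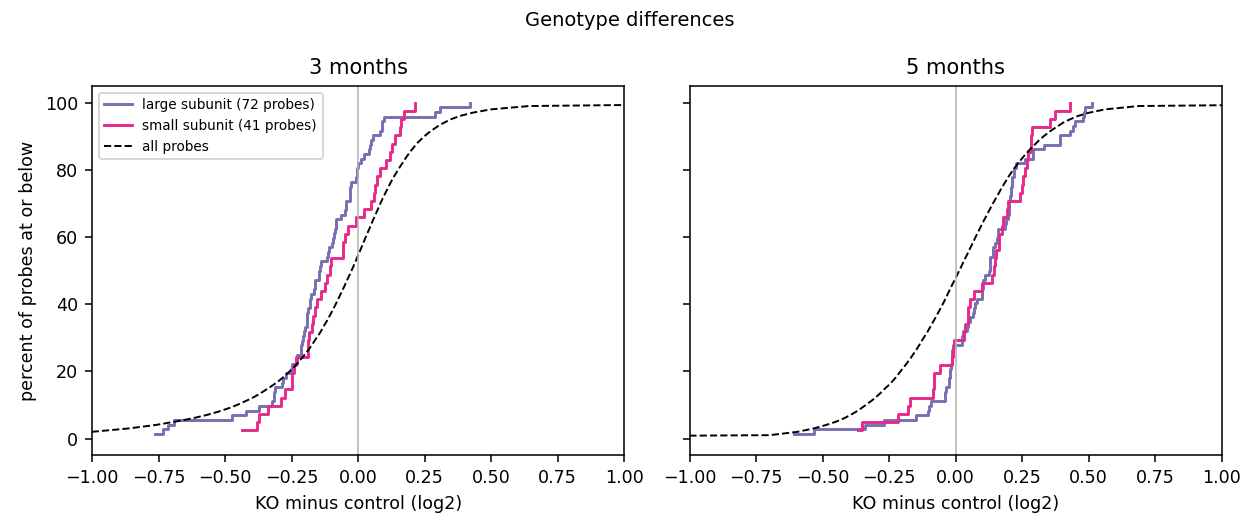
Cumulative distribution of the knockout minus control difference at 3 and 5 months, in log2 units, for large-subunit probes (72), small-subunit probes (41) and all 36607 probes (dashed). In the middle of the distributions both subunits lie to the left of all probes at 3 months and to the right at 5 months.

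At 5 months again 0 of 114 probes passed in either direction, against 0.145% of all probes (0.128% higher and 0.0164% lower), and the smallest adjusted p was 0.274. At an unadjusted p under 0.05, 11 probes were higher in knockouts (9.65%, against 7.07% of all probes) and 1 was lower (0.877%, against 3.41%). Of the 11, 9 belong to the large subunit, which has 72 of the 114 probes, and 2 to the small subunit, which has 41. The median difference was 0.14, against 0.01 over all probes, and 82 of 114 probes were positive, against 52.3% of all probes. Without 5-month control 4 the median was 0.08. Without it and 3-month control 5 there were 8 probes higher at an unadjusted p under 0.05 (7.02%, against 4.9% of all probes). None were lower, against 2.63% of all probes, and 80 of 114 were positive, against 19444 of 36607 over all probes. Within the array run that holds both genotypes the median was 0.16. That run holds all 5 controls but only knockouts 1 and 2, whose medians over the members were 0.20 and 0.03. Knockouts 3 to 5 are in a run without controls, so genotype and array run cannot be fully told apart at 5 months. Between genotypes at 5 months the marker medians differed by 0.54 for Kupffer cells and macrophages, 0.37 for endothelial cells and 0.19 for hepatocytes, with 0 probes of these 3 lists called. The endothelial medians ran from -0.05 to 0.20 over the knockouts and from -0.50 to -0.18 over the controls, without overlap, while those of the other 2 lists overlapped. Their part in the members' difference was not tested. Knockouts lay above controls without overlap in 5 probes (4.39%, against 2.59% of all probes) and below them in 1 probe (0.877%, against 1.33%). Without the same 2 controls these counts were 6 (5.26%, against 2.93% of all probes) and 1 (0.877%, against 1.56%).

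Mrpl57, a protein specific to the mitochondrial large subunit, had the smallest adjusted p. It measured 0.40, 0.12, 0.72, 0.26 and 0.58 in knockouts and 0.04, -0.25, -0.04, -0.11 and -0.13 in controls. All knockouts lay above all controls, with a difference of 0.51 (SE 0.16, limma adjusted p = 0.274). It was the 1 member probe that passed under quantile normalization of the arrays. Mrpl13, a large-subunit protein with a bacterial counterpart, measured 0.42, 0.05, 0.16, 0.10 and -0.13 in knockouts and -0.23, -0.27, -0.24, -0.67 and -0.43 in controls. It too had no overlap, with a difference of 0.49 (SE 0.19, limma adjusted p = 0.362), though its second probe gave 0.18. Mrpl1 measured 0.09, 0.23, 0.14, 0.17 and 0.04 in knockouts and -0.11, -0.08, -0.18, -0.01 and -0.05 in controls. The narrow spread of Mrpl1 at 5 months separated the groups by a small difference, 0.22 (SE 0.16, limma adjusted p = 0.717). The second probes of Mrpl35 and Mrpl3 were the other 2 higher without overlap, at 0.19 and 0.26. Mrps10 was the probe that lay lower, with 0.14, 0.13, 0.09, 0.01 and -0.11 in knockouts and 0.20, 0.20, 0.20, 0.27 and 0.23 in controls, a difference of -0.17 (SE 0.12, limma adjusted p = 0.695).

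The remaining genes with large positive differences at 5 months were Mrpl14, Mrpl23, Mrpl20 and Mrps18a, at 0.48, 0.45, 0.44 and 0.43, with adjusted p-values from 0.285 to 0.462. The largest negative differences were those of Mrpl48, Mrpl47, Mrps14, Mrpl45 and Mrpl15, at -0.61, -0.53, -0.35, -0.34 and -0.27, with adjusted p-values from 0.550 to 0.906. Mrpl14 and Mrps18a lie on chromosome 17, as does Mrps10. The 11 member probes of 8 genes on this chromosome had genotype differences of -0.44 to 0.21 at 3 months and -0.37 to 0.48 at 5 months, with both signs at each time.

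**Figure D5:**
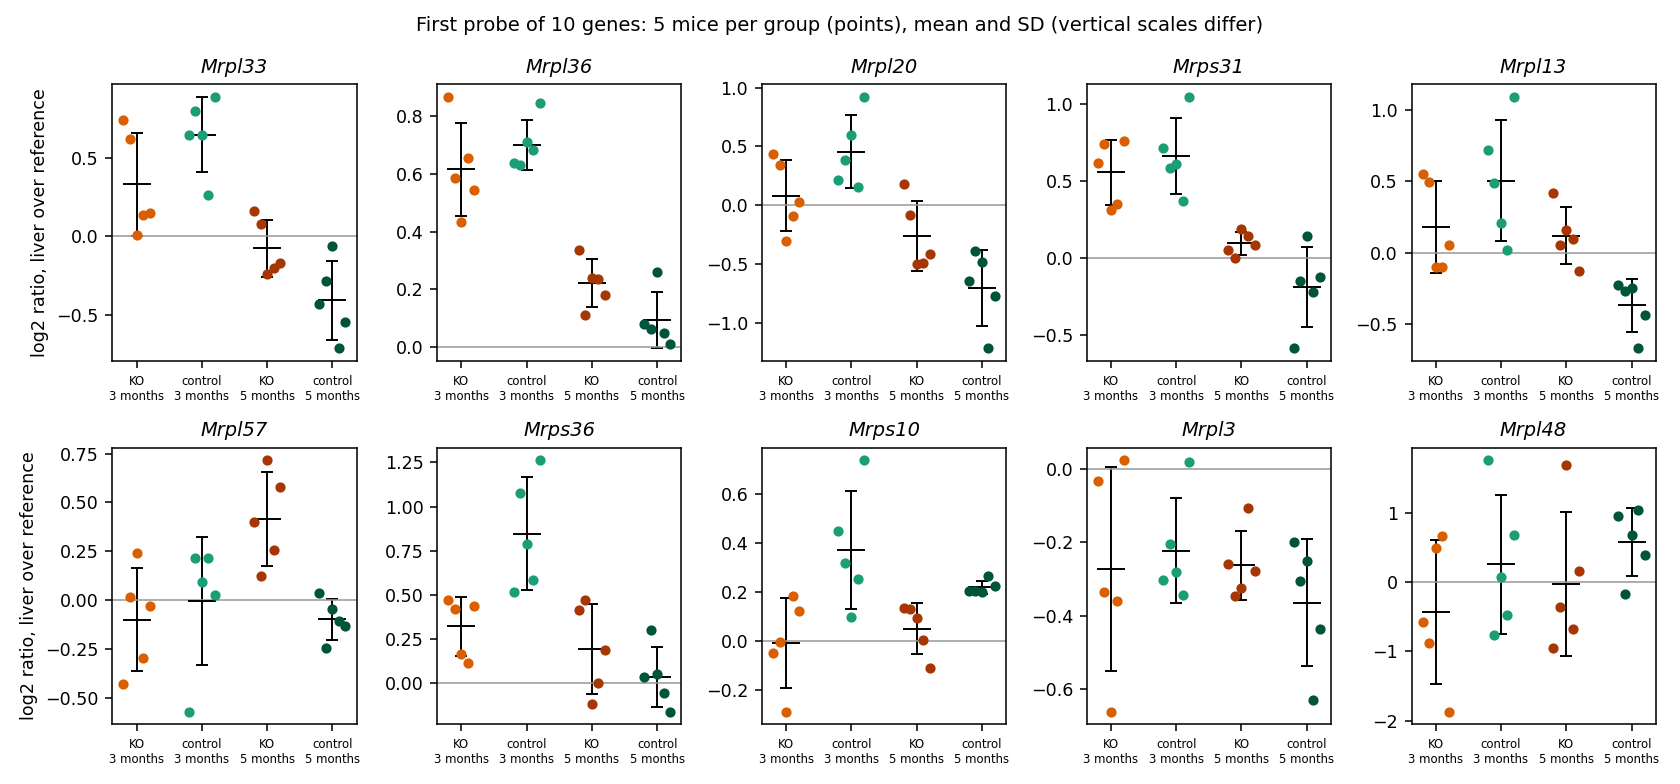
Log2 ratio of liver over reference in each mouse (points) for the first probe of 10 genes, with group mean and SD (bars) on separate vertical scales. Mrpl33, Mrpl20 and Mrpl13 are lowest in 5-month controls, Mrpl57 is highest in 5-month knockouts, and the 5 livers of a group lie far apart for Mrpl48.

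The genotype difference was then compared between the times. At 5 minus 3 months 0 of 114 probes passed a limma adjusted p under 0.05, as did 0% of all probes, and the smallest adjusted p among the members was 0.507. At an unadjusted p under 0.05, 17 member probes had a more positive genotype difference at 5 months (14.9%, against 5.61% of all probes) and 0 a more negative one (2.14% of all probes). The median was 0.22, against 0.06 over all probes. Without 3-month control 5 and 5-month control 4 it was 0.11, and 10 probes were more positive at an unadjusted p under 0.05 (8.77%, against 4.49% of all probes). Mrpl13 and Mrpl20 had the largest values among the representative probes with an unadjusted p under 0.05, at 0.81 each (SE 0.27 and 0.28).

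The members did not vary equally among the 20 mice. The SD over the mice had a median of 0.30 over the 114 probes, against 0.36 over all probes. Mrpl10, Mrps11, Mrps2 and Mrpl3 varied least among the representative probes. Mrps2, a small-subunit protein with a bacterial counterpart, averaged 0.33 ± 0.10 in knockouts and 0.30 ± 0.18 in controls at 3 months, and 0.17 ± 0.24 in knockouts and 0.18 ± 0.13 in controls at 5 months (SD, n = 5 each). Mrpl3, in which human mutations cause a mitochondrial cardiomyopathy, averaged -0.27, -0.22, -0.26 and -0.36 in the same groups. The differences of these 4 probes between genotypes and between times ran from -0.23, for Mrps11 between the times in controls, to 0.17, for Mrps11 between genotypes at 5 months.

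The most variable were Mrps14, Mrpl21, Mrpl48 and Mrpl47. Mrpl21 measured -2.13, 1.01, -0.20, 0.54 and -0.63 in 3-month knockouts and 1.69, -1.12, 1.35, -0.48 and 0.71 in 3-month controls. The spread within each group was wider than any difference between the groups. In all, 6 probes had an SD over 0.7, namely those of Mrps14 and Mrpl21, the first 2 of Mrpl48 and the second probes of Mrps18c and Mrpl19. In these 6 the dye orientations disagreed strongly at 3 months. The dye difference, the value with liver in Cy5 minus that with liver in Cy3 over 2, ran from -2.34 to -1.49. Its median size was 2.04 in the 6 probes, 0.13 in the other 108 members and 0.37 over all probes. The genotype differences of Mrpl21, Mrpl48 and Mrps14 named above came from such probes. The first probes of Mrpl47 and Mrpl32, also named above, had a smaller SD. Their dye differences were -1.46 and -1.29 at 3 months and -0.11 and -0.32 at 5 months.

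Several genes were measured more than once. Of the 77 genes, 15 had 2 probes, 9 had 3 and Mrpl48 had 5. All probes of a gene shared a sign in 18 of these 25 genes for the genotype difference at 3 months, in 12 at 5 months, in 18 for the change of that difference, in 12 between the times in knockouts and in 16 between the times in controls. Mrpl33, Mrpl12, Mrpl13, Mrps12 and Mrpl1 had 1 sign over their probes between the times in controls. Mrpl48 did not, with probes from -0.71 to 0.32, and neither did Mrps18c, with -0.85 and 0.32, or Mrpl47, with -0.51 to 0.65. Mrpl32, Mrpl19, Mrps10, Mrps15, Mrps25 and Mrps31 also had both signs. The deposited values do not show whether the probes of a gene hit different transcripts.

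Some members with a known place in the system were looked at singly. Mrpl12, which also binds the mitochondrial RNA polymerase, averaged 0.07 ± 0.17 in knockouts and 0.34 ± 0.38 in controls at 3 months, and 0.12 ± 0.24 in knockouts and -0.07 ± 0.22 in controls at 5 months (SD, n = 5 each). Its difference between the times in controls was -0.41 (limma adjusted p = 0.102). Mrpl44, a large-subunit protein related to ribonuclease III, gave -0.21 (limma adjusted p = 0.32). Of the 3 genes related to bacterial protein S18, 1 passed between the times in controls, with Mrps18c at -0.85 (limma adjusted p = 0.0102), Mrps18a at -0.38 (limma adjusted p = 0.191) and Mrps18b at -0.17 (limma adjusted p = 0.539) for their first probes. Whether these 3 genes differ from each other was not tested.

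Lists for the rest of the mitochondrial translation system were counted in the same contrast, 5 against 3 months in controls. Of 31 probes for translation factors and membrane insertion 5 were lower and 0 higher, and their median difference was -0.12. They are Gfm1, an elongation factor, Mtres1, Slirp by both probes and Oxa1l. Of 39 probes for ribosome assembly and rRNA processing 7 were lower, of the genes Mterf3, Nsun4, C1qbp, Hsd17b10, Mrm3 and Ngrn, and the median was -0.21. That list also holds Mcat and Mdn1, which have other functions. None of 24 probes for mitochondrial aminoacyl-tRNA synthetases passed, and their median was -0.10. Of 41 probes for mitochondrial DNA and transcription 2 were lower, among them Ssbp1, which coats single-stranded mitochondrial DNA, at -0.94 (limma adjusted p = 0.00149), and 3 were higher. Of 40 probes for protein import and chaperones 14 were lower and 2 higher. The ribosomal proteins that carry other names had 6 probes of 4 genes, with a median of -0.37. Among them Chchd1 gave -0.90 and the first probe of Dap3 -0.35 (limma adjusted p = 0.00675 and 0.0274). These shares stand against 7.25% lower and 7.41% higher over all probes.

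The oxidative phosphorylation subunits and the cytosolic ribosomal proteins had larger median differences than the mitochondrial ribosomal proteins. Between the times in controls 80 of 180 probes for oxidative phosphorylation were lower (44.4%) with a median of -0.75, and 61 of 119 for cytosolic ribosomal proteins (51.3%) with a median of -0.72. In knockouts the medians were -0.22 and -0.17. Between genotypes at 5 months the medians were 0.27 and 0.36, against 0.14 for the mitochondrial ribosomal proteins. Without 3-month control 5 and 5-month control 4 the medians between the times in controls were -0.63 for oxidative phosphorylation and -0.54 for cytosolic ribosomal proteins, and those between genotypes at 5 months were 0.20 and 0.26. Only 1 probe of these 3 sets passed a limma adjusted p under 0.05 between genotypes at either time, that of the cytosolic gene Rpl32 at 5 months, which averaged -0.23 ± 0.21 in knockouts and -1.06 ± 0.32 in controls (adjusted p = 0.0465). Without those 2 livers 0 probes of the 3 sets passed between genotypes. The differences between the sets were not tested.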

How the data were processed

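Liver RNA of 20 mice was hybridised with pooled reference RNA on 38 two-colour arrays. The authors deposited 1 log2 ratio per probe and array, and these values were used as deposited, with no further centring. Base 2 was read from the steps between low values, and the sources used here do not give the background correction or the normalization. Arrays with liver in Cy3 were turned in sign. Both arrays of a mouse were averaged, and a probe's dye effect, averaged over both times, was subtracted for the 2 mice with 1 array. All 36607 probes were fitted in limma 3.58.1 (R 4.3.3) with the 4 groups, and p-values were adjusted by Benjamini-Hochberg over all probes, with 0.05 as the threshold. The labels describe separate mice. The reference pool's own spread is not measured, and precision is limited by how many mice and arrays there are.

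Probes were named through the platform annotation, updated by gene ID to RefSeq. All 77 genes matched, 203 probes of the platform carried several symbols and 9478 none. The first probe stands for a gene with several. Genes were named by a rule: the 6 largest genotype differences each way at each time, the most and least variable, those farthest from the reference, and genes with a known role. Mrpl36, Mrpl52 and the further genes called between the times were singled out after their values were seen. The members and gene lists were chosen with earlier results of these data known. The fit was tested on simulated data. Alternatives were other centring and normalization, single dyes, array run, left-out mice, the replicate number as a block and the methods' t-test.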

Additional observations from a re-analysis of the deposited data

Results flagged for a closer look

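In 14 of 188 groups of 5 mice tested (7.45%), over 46 genes and the summaries, 1 liver lay far from the other 4 by Dixon's test. Chance gives about 1 in 20 for independent groups. The genes were named partly for a large spread or difference and share the same mice, so the 2 rates are not directly comparable. Among 3-month knockouts the far liver was knockout 5 for Mrps30, at 2.06 with the next at 0.86. Among 3-month controls, control 5 was high for Mrpl1 (1.06, next 0.23), Mrpl12 (1.00, next 0.30) and Mrps34 (1.04, next 0.67). Control 4 was low for Mrps12 (0.18, next 0.51) and control 1 for Mrpl57 (-0.57, next 0.03). Among 5-month knockouts, knockout 3 was low for Mrps18b (0.0001, next 0.29), Mrps5 (-1.20, next -0.37) and Mrps18a (0.15, next 0.57), and knockout 2 for Mrpl32 (-0.38, next 0.22) and Mrps15 (0.16, next 0.41). Knockouts 2 and 3 are those with 1 dye orientation, and their values rest on a dye effect averaged over both times. For the first probe of Mrpl32 the dye effect was -1.29 at 3 months and -0.32 at 5 months. The averaged effect is larger in size than that at 5 months and lowers the value of knockout 2, so Mrpl32 is not a firm outlier there. Whether the other low values depend on the subtraction was not tested. The median over the members was high in 5-month knockout 1, at 0.20 with the next at 0.03. Among 5-month controls, control 4 was low for Mrps26 (-1.01, next -0.38) and control 3 for Mrps16 (-1.79, next -0.22).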

How the results depend on the processing

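Of the alternatives to the counts and medians over the members, 23 moved, that is a count by over 1.5 times or a median by more than 0.14, the SD between replicates, and 207 did not. These limits are wide for the genotype medians, and within 1 array run the 3-month median was 0.01, with its sign turned. The 207 also include results that could not move, so their number is no measure of stability. Examples are the genotype medians with the replicate number as a block and the medians relative to all probes with centred arrays. Counts that stayed at 0 were scored as unmoved as well. Between genotypes 0 member probes were called in the settings run, except that at 5 months 1 was higher under quantile normalization and 1 by the methods' t-test before adjustment (0 after it). Between the times in knockouts, 17 probes were lower with centred arrays (median -0.31), 5 with quantile normalization (median -0.29), and 0 with liver in Cy3 alone, without the knockouts of 1 orientation or with array run as a random block. With liver in Cy5 alone 8 were higher. The median minus that of all probes was -0.49 with liver in Cy5 alone and -0.091 with liver in Cy3 alone. Between the times in controls, 66 probes were lower with centred arrays (median -0.54), and quantile normalization gave 2 higher (median -0.58). Without 3-month control 5 and 5-month control 4, a setting chosen after seeing the data, 25 were lower (median -0.24, or -0.37 relative to all probes). With liver in Cy5 alone 10 were higher, and the median relative to all probes was -0.85, against -0.14 with liver in Cy3 alone. The change of the genotype difference relative to all probes was 0.31 with liver in Cy5 alone. The first probe of Mrpl32 turned to -1.12 between the times in controls with liver in Cy3 alone. The cause of these changes was not tested.

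Leaving out 1 mouse at a time gave 29 to 45 probes lower and 0 to 1 higher between the times in controls (median -0.44 to -0.29), and 0 to 6 lower and 0 to 2 higher in knockouts (median -0.17 to -0.11). Relative to all probes these medians ran from -0.58 to -0.44 in controls and from -0.33 to -0.25 in knockouts. The genotype median ran from -0.18 to -0.04 at 3 months and from 0.08 to 0.17 at 5 months. Replicate numbers did not pair the mice, since same-numbered livers correlated at -0.07 to 0.11 at 3 months and -0.18 to 0.17 at 5 months. A fit with the replicate number as a block called 0 member probes between genotypes, with medians of -0.12 and 0.14, which the balanced design leaves unchanged.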
